A study of Mus musculus with 115 samples.

Results

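The comparison described here is between mice that had testes and mice that had ovaries before surgery, in inguinal adipose tissue and under estradiol. It rests on 19 arrays, 9 from former testis bearers and 10 from former ovary bearers, out of 55 inguinal adipose arrays and 115 arrays in the whole series. The arrays were chosen by their labels alone. The mice were FCG animals of the C57BL/6J strain, a model in which gonad type and sex chromosomes are inherited separately. Their Y chromosome lacks Sry, the gene that directs testis formation, and some of them carry Sry as a transgene on an autosome. The former testis group held 4 XXSry and 5 XY-Sry arrays, and the former ovary group held 5 XX and 5 XY- arrays. All mice were gonadectomised at 75 days of age, received a Silastic capsule at once and were killed 3 weeks later. The estradiol capsule held 50 µg of 17beta-estradiol in sesame oil. Arrays with blank capsules (9 former testes, 8 former ovaries) and with testosterone capsules of 5 mM (10 and 9) served as references. Every former testis bearer also carries the Sry transgene and lived with testes until adulthood, so the transgene, earlier hormone exposure and gonad type cannot be told apart. Males and females were housed apart, and housing is confounded with gonad type as well. No label says that the arrays of a group came from separate animals beyond listing them as separate samples, so p-values measure the spread between these samples.

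In female mice the inguinal fat pad surrounds a mammary gland, whose ducts have an inner luminal and an outer basal layer of epithelium. In male mouse embryos, androgens cause most of the mammary bud to regress. Estradiol acts on the gland through its nuclear receptor, and amphiregulin (Areg) is a growth factor through which it drives duct growth. In fat cells estradiol also affects lipid storage and the secretion of hormones such as leptin.

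Levels are log2 intensities after background correction and quantile normalisation, and differences are former testes minus former ovaries unless stated. A probe was called at an adjusted p below 0.05 (limma, Benjamini-Hochberg over all tested probes). It counts as detected in an array at a detection p below 0.01. Between 42.8% and 49.0% of all probes were detected in the 19 arrays. All 10 adipocyte markers were detected in all 19 arrays. The genotype labels matched the sex chromosome transcripts: Xist lay between 7.37 and 8.66 in the 9 arrays labelled XX and between 4.59 and 5.06 in the 10 labelled XY, and Eif2s3y between 4.51 and 5.21 against 8.34 and 9.56. The label fields of XX E replicate 1 disagree on its treatment. It was kept as estradiol, and its Greb1 level of 9.07 lay within the 7.05 to 9.15 of the other 18 estradiol arrays and outside the 4.54 to 5.89 of the 19 testosterone arrays. In bulk tissue, fewer cells of a type and less RNA per cell cannot be told apart.

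Former testis bearers had much lower levels of mammary epithelial and milk transcripts, and moderately higher levels of a smaller group that includes leptin. Of 14636 tested probes, 643 (4.39%) were called, with 442 lower (3.02%) and 201 higher (1.37%) in former testes. The lower calls were also the larger ones, since 285 probes (1.95%) were lower by 2-fold or more and 30 (0.205%) were higher by as much. In 240 probes (1.64%) every former testis array lay below every former ovary array, and in 11 (0.0752%) every one lay above. Under median centring the split was 97 higher and 403 lower. The number of higher calls was less stable than the number of lower calls: it was 125 without XXSry E replicate 2, 125 without XX E replicate 3, 129 without XXSry E replicate 3, 134 without XY- E replicate 3 and 98 without slide 5, while the lower calls were 423 without slide 5 and between 408 and 452 when any 1 array was left out.

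Keratins and other markers of the luminal layer fell together. All 11 tested luminal markers were called lower, with a median of -2.26 against 0.04 over all tested probes, of which 3.02% were called lower. Of the 16 genes listed, 14 were on the array. Under estradiol 4 of the 11 were detected in no former testis array, so they may have been tested only through their level in former ovaries. Krt8, a keratin of simple epithelia, was at 6.27, 7.30 and 10.67 (lowest, median and highest of 9) in former testes and at 11.48, 12.02 and 13.09 in former ovaries. No array of the first group reached the second, and the difference was -4.00 ± 0.53 (SE, adjusted p = 1.18e-07). Krt19 was lower by a larger margin, at 4.44, 6.39 and 9.14 against 10.81, 11.24 and 11.98 (-4.57 ± 0.44, adjusted p = 6.32e-11). Foxa1, a transcription factor that works with the estrogen receptor in luminal cells, was 5.85 ± 1.0 (SD, n = 9) against 9.30 ± 0.56 (SD, n = 10). The luminal transcription factors Elf3 and Elf5 and the splicing factor Esrp1 were detected in all 10 former ovary arrays and in no former testis array. For these only a bound holds, which was at least 1.57-fold for Elf3 and at least 2.08-fold for Esrp1. The other 2 Elf3 probes were detected in 4 of 10 former ovary arrays and gave -1.13 and -0.39, the latter not called.

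In the basal layer 7 of 8 tested markers were called lower, with a median of -2.50. Krt14, a basal keratin, was at 5.35, 7.33 and 9.54 in former testes and at 10.94, 11.77 and 12.31 in former ovaries (-4.43 ± 0.59, adjusted p = 1.29e-07). The transcription factor Trp63, which maintains basal cells, was lower by less (-2.01 ± 0.22, adjusted p = 1.93e-09), and no former testis array reached a former ovary array. The member that was not called was the smooth muscle myosin Myh11 (-0.34, adjusted p = 0.69), while smooth muscle actin Acta2 was called at -0.74. Epidermis shares several basal keratins. Of its 4 tested markers 0 were called, against 4.39% of all tested probes, so the count says little. Their median was 0.15, and loricrin (Lor) was detected in 1 former ovary and 1 former testis array. That former ovary array was XY- E replicate 1, with Lor at 11.62. Its mean level of the basal markers, 10.21, was the highest of the 55 adipose arrays. Whether skin added to the basal levels was not tested.

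Milk and secreted defence proteins followed the epithelium, and 7 of 10 tested members were called lower (median -2.95). Kappa-casein, Csn3, was at 5.28, 7.65 and 10.20 in former testes against 11.24, 12.21 and 12.97 in former ovaries. The groups did not overlap, and the difference was -4.00 ± 0.62 (adjusted p = 4.36e-06). Lcn2, an iron-scavenging lipocalin, was the milk member named here whose groups did overlap, with a highest former testis array of 10.15 and a lowest former ovary array of 10.12 (-3.99 ± 0.50, adjusted p = 3.77e-08). Btn1a1, a protein of the milk fat globule, was detected in 2 of 9 former testis arrays and in 10 of 10 former ovary arrays. Of the junction proteins that join epithelial cells, 10 of 15 were called lower (median -1.06), among them the claudin Cldn4 (-4.55 ± 0.44) and the plakophilin Pkp1, detected in no former testis array and lower by at least 3.19-fold. Membrane-bound serine proteases and their inhibitors were called lower in 7 of 8 cases (median -2.04), among them Tmprss13 (-2.97 ± 0.26) and matriptase, St14 (-2.18 ± 0.24). Both lists hold members that epithelia in general express. Wfdc2 stands in the milk and the protease list, and the cadherin Cdh1 in the luminal and the junction list. Under estradiol 5 of the 15 junction and 2 of the 8 protease members were detected in no former testis array. They too may have been tested only through former ovaries.

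**Figure D1:**
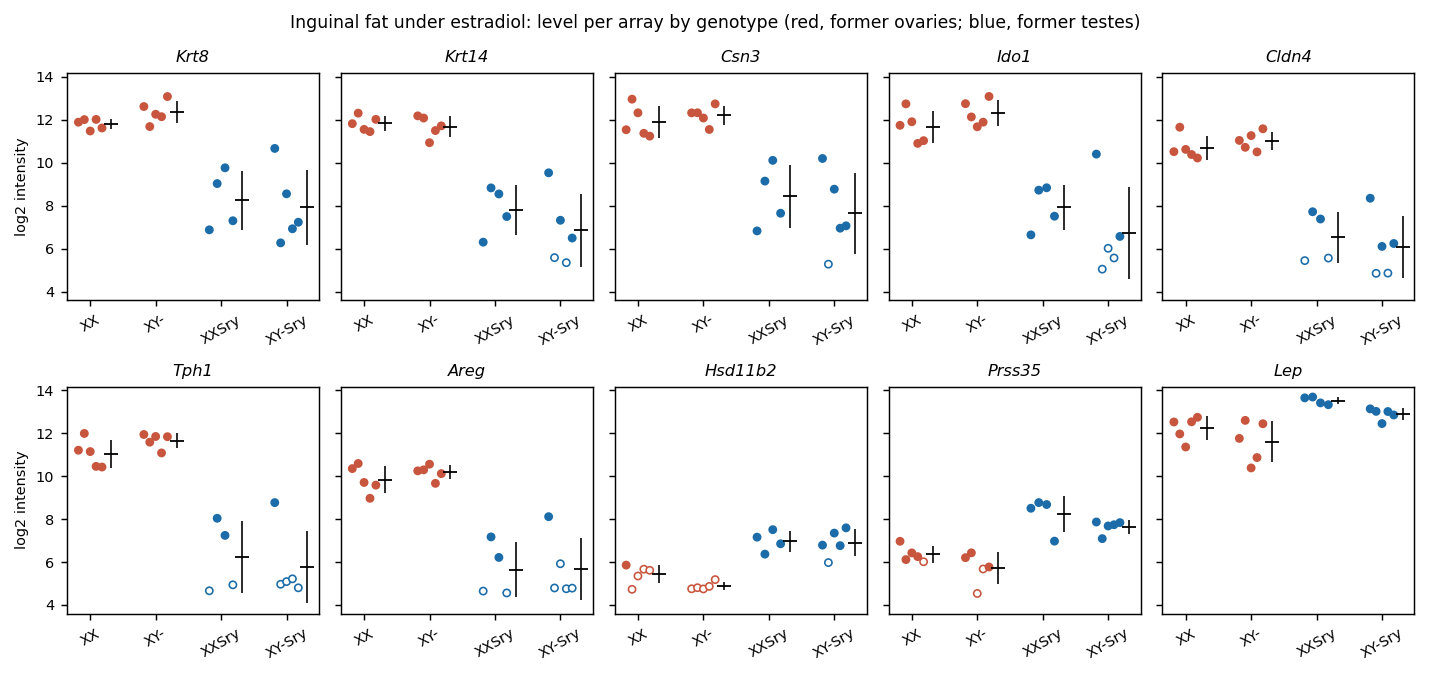
Log2 intensity of 10 genes in each estradiol array, by genotype; filled points are detected, open points are not, and the bar beside each group is its mean with SD (n = 4 for XXSry, 5 for the others). Krt8 in XX and XY- lies at 11.48 or above and in XXSry and XY-Sry at 10.67 or below, and Hsd11b2 and Prss35 run the other way.

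The former testis arrays were not uniform. The mean level of the luminal markers ran from 5.03 to 7.0 in former testes and from 8.13 to 9.19 in former ovaries, with no overlap. XY-Sry E replicate 1 was highest among the former testes, at 7.0, followed by XXSry E replicate 3 at 6.53 and XXSry E replicate 2 at 6.26. Over the 112 probes that were lower by over 4-fold, the median distance to the former ovary mean was -1.77 in XY-Sry E replicate 1, where 98 of them were detected. It was -3.20 in XY-Sry E replicate 2, where 22 were detected.

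Probes were called in each of the sex chromosome backgrounds when they were tested apart. XXSry against XX gave 272 calls (1.86%), with 35 higher (0.239%) and 237 lower (1.62%). XY-Sry against XY- gave 366 (2.5%), with 36 higher (0.246%) and 330 lower (2.25%). The test of the difference between the backgrounds called 0 probes (0%, limma), with 168 probes (1.15%) at an unadjusted p under 0.05 and a smallest adjusted p of 0.9999. It called 1 probe with array weights. The higher calls in XX mice were 12 without XXSry E replicate 2, 12 without XXSry E replicate 3, 16 without XX E replicate 2, 16 without XX E replicate 3, 19 without XX E replicate 1, 20 without XXSry E replicate 1, 13 without slide 5, 15 with XX E replicate 1 taken as testosterone and 21 under median centring. They were 54 in a fit of the estradiol arrays alone, 58 when slide was added to that fit as a block, and 222 with array weights. The higher calls in XY mice were 18 without XY- E replicate 3 and 18 under median centring, and they were 67 with slide as a block, 109 with slide as a block in the estradiol arrays alone, 75 with scores of other tissues as covariates and 105 with array weights. The lower calls stayed the majority in each of these.

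Some of the genes lowest in former testes were detected in every former ovary array under estradiol and in few arrays of the other groups. Areg was at 4.56, 4.79 and 8.11 in former testes, where it was detected in 3 of 9 arrays, and at 8.97, 10.18 and 10.59 in former ovaries, where it was detected in all 10. The difference was -4.35 ± 0.42 (adjusted p = 4.82e-11). Under blank capsules it was detected in 1 of 8 former ovary and 3 of 9 former testis arrays, and the gonad difference there was 0.21 (adjusted p = 0.999). Estradiol raised Areg in former ovaries by 4.47 on the log2 scale (adjusted p = 1.09e-10), while in former testes the change was -0.09 (adjusted p = 0.944). Only slides 2 and 8 carried both estradiol and blank arrays, so changes between these capsules, here and below, are partly confounded with slide. Tph1, the enzyme that starts peripheral serotonin synthesis, ran from 4.66 to 8.77 (median 5.09) in former testes and from 10.42 to 11.99 (median 11.40) in former ovaries (-5.36 ± 0.48, adjusted p = 4.79e-12). Its difference under blank was 0.53 and under testosterone -0.02, neither called. The gonad difference under estradiol minus that under blank was -4.56 ± 0.61 for Areg (adjusted p = 1.62e-06) and -5.89 ± 0.70 for Tph1 (adjusted p = 9.53e-08).

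Cxcl15, a chemokine best known from lung epithelium, had the largest difference of any called gene, -5.74 ± 0.60 (adjusted p = 3.79e-10). It was at 4.48, 5.90 and 10.69 in former testes and at 11.99, 12.50 and 13.41 in former ovaries. Its difference was -3.05 under testosterone (adjusted p = 0.000489) and -1.49 under blank (adjusted p = 0.558). Surfactant protein D, Sftpd, another secreted defence protein, was detected in 10 of 10 former ovary and 2 of 9 former testis arrays under estradiol, and in no array of either group under testosterone. The 2 probes of the actin regulator Phactr1 disagreed on its level in former testes. The dimmer one was detected in no former testis array, which leaves a bound of at least 1.65-fold for that probe. The brighter one was detected in all 19 arrays and gave -0.67 ± 0.18 (adjusted p = 0.0169).

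The promoters of Areg and Cxcl15 are shown as examples of genes that were lower by over 4 log2 units and differed from blank. Tph1 (-5.36), Abp1 (-4.46) and Slc5a8 (-4.08) did so as well, and their promoters were not looked at singly. That of Lep is shown because it ran the other way. Each is the 250 bases before the RefSeq gene start on GRCm38.p6, plus strand, with matches to the searched motifs in capitals. Areg lies at chr5:91139349-91139598, Cxcl15 at chr5:90794284-90794533 and Lep at chr6:29059971-29060220.
Areg: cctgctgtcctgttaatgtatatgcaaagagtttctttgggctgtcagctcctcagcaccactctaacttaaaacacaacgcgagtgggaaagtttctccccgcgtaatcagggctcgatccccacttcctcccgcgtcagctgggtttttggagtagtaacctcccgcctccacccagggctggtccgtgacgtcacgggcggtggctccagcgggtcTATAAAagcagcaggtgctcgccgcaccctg
Cxcl15: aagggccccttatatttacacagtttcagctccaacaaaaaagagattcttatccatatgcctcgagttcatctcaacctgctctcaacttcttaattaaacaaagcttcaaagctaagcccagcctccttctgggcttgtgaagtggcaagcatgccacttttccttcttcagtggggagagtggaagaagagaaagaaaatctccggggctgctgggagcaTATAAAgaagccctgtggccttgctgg
Lep: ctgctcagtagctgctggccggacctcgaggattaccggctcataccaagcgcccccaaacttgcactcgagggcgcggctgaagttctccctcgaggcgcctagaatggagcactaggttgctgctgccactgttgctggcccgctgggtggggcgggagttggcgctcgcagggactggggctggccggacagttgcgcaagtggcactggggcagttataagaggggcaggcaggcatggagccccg

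On both strands 5 motifs were searched: the estrogen response element GGTCANNNTGACC, its extended single arm AGGTCA, called the partial site here, the TATA box TATAAA, the AP-1 site TGANTCA and the androgen or glucocorticoid site TGTTCT. The matches found were a TATA box at -31 to -26 in Areg and at -27 to -22 in Cxcl15, counted from the gene start. The Lep window held no exact match to any of the 5. Its tataag, near the gene start, differs from the searched TATA box in the last base. Over all 32851 listed promoters, 12.4% held the TATA box, 14.02% the partial site, 6.75% the AP-1 site and 16.1% the androgen or glucocorticoid site, while 21 held the full element. Among promoters of tested genes, 7.17% held the TATA box, against 8.91% for genes called lower and 9.04% for genes called higher. Promoters were listed for 8239 of the 10741 tested genes. Both the genes and the motifs were picked after matches had been seen in 5 genes, of which Hpca, with 1 partial site, and Prss35, with no match, are not printed because their listed start is not the gene start.

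Many of the lower calls were shared with the other capsules. Of the 442 probes lower in former testes under estradiol, 177 were also called lower under blank (background 1.69% of probes) and 241 under testosterone (2.6%). Estradiol raised 178 of the 442 in former ovaries (background 5.13%) and 16 in former testes (6%). The comparisons of estradiol with blank share the estradiol arrays with the one that chose the probes, and that choice favours such counts. The gonad difference itself differed from that under blank in 122 probes (0.834%), 40 of them higher (0.273%) and 82 lower (0.56%). It differed from that under testosterone in 121 (0.827%), 42 higher (0.287%) and 79 lower (0.54%), and 86 were in both. With array weights the split turned for blank, with 280 called, 162 higher and 118 lower, and for testosterone it was 71 higher and 84 lower. Median centring gave 24 higher and 77 lower for blank and 22 higher and 74 lower for testosterone, and without slide 5 the latter were 27 and 67.

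Ido1, which breaks down tryptophan, was low in former testes whatever the capsule held. It was at 5.05, 6.65 and 10.41 in former testes against 10.91, 11.90 and 13.09 in former ovaries under estradiol (-4.66 ± 0.46, adjusted p = 7.87e-11). The difference was -3.78 under blank and -4.57 under testosterone, both called, and neither interaction was called. The luminal list as a whole had medians of -1.97 under blank and -2.09 under testosterone, with 10 of 11 called in each and 0 called for either interaction. Of the basal list, 2 of 8 were called lower against blank and 2 against testosterone. They include Lgals7, a galectin of stratified epithelia, at -2.71 under estradiol and -0.17 under blank, and Trp63, at -2.01 and -0.20.

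Ptn, the growth factor pleiotrophin, showed the opposite order. It was far lower in former testes under blank (-4.12, adjusted p = 2.97e-12) and testosterone (-3.75, adjusted p = 6.31e-12), and under estradiol the difference was 0.72 ± 0.32 (adjusted p = 0.28). Under blank it ran from 7.02 to 8.90 in former testes and from 11.28 to 12.64 in former ovaries. Under estradiol the ranges were 9.56 to 10.96 and 8.98 to 10.68, and they overlapped. Estradiol raised it by 2.64 in former testes (adjusted p = 4.39e-08) and lowered it in former ovaries, where it fell by 2.19 (adjusted p = 4.14e-06).

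**Figure D2:**
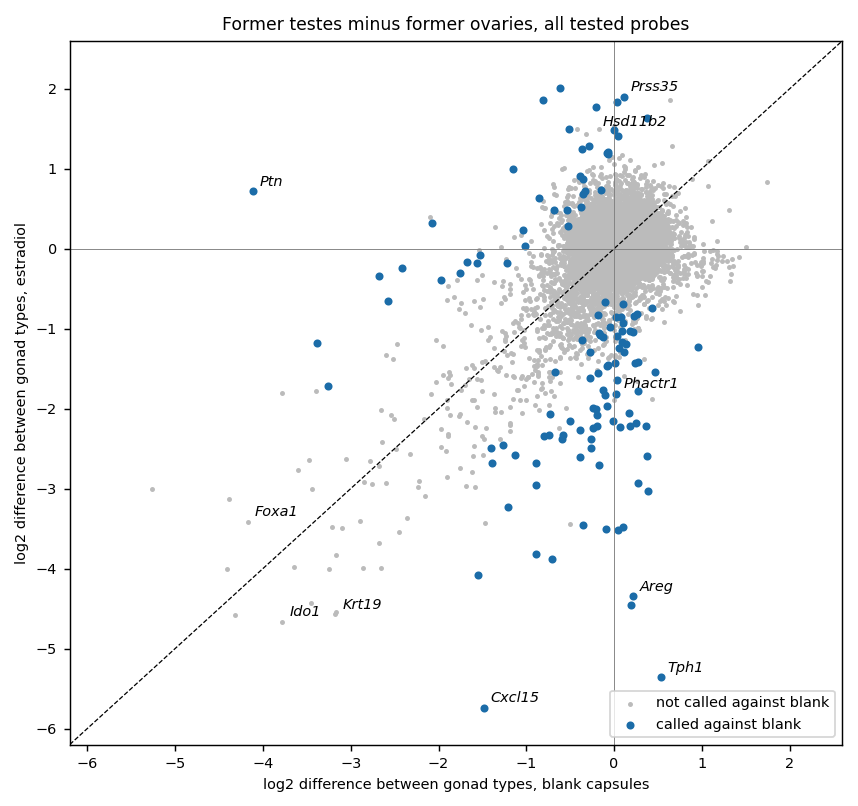
Difference between gonad types (log2, former testes minus former ovaries) under estradiol on the y axis against that under blank capsules on the x axis, for 14636 tested probes; blue points are the 122 whose difference was called between the treatments, and the dashed line marks equal values. Tph1 and Areg lie near 0 on the x axis and below -4 on the y axis, Ido1 and Krt19 lie low on both, and Ptn lies at -4.12 and 0.72.

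Signals and receptors of mammary growth moved both ways, with 5 of 17 called lower and 2 higher (median 0.06). The prolactin receptor Prlr was lower in former testes under all 3 capsules, at 7.41, 8.97 and 9.97 against 10.64, 11.43 and 12.21 under estradiol (-2.65 ± 0.35). A second Prlr probe gave -1.49. The progesterone receptor Pgr, a classical estradiol target, was also lower (-1.23 ± 0.16, adjusted p = 7.27e-08), and the groups overlapped. Pgr was detected in 1 of 9 former testis and 9 of 10 former ovary arrays, so background signal limits the size of its difference. The stromal growth factor Fgf10 was higher in former testes, at 11.33, 11.45 and 11.99 against 9.05, 10.36 and 11.19, with no overlap (1.19 ± 0.18, adjusted p = 1.5e-06). Igf1 was higher on the probe used (0.76 ± 0.15, adjusted p = 0.000441) and not called on another (0.69, adjusted p = 0.0841). The estrogen receptor Esr1 was not called (0.43, adjusted p = 0.521).

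Glucocorticoid enzymes split. Hsd11b2, which inactivates corticosterone, was at 5.97, 6.85 and 7.59 in former testes and detected in 8 of 9 arrays. In former ovaries it was at 4.73, 5.02 and 5.86 and detected in 1 of 10, and no array overlapped (1.78 ± 0.15, adjusted p = 1.58e-12). Under blank and testosterone it was detected in no array of either group. Hsd11b1, which regenerates corticosterone, ran the other way, at 9.78, 10.20 and 10.82 against 10.60, 11.52 and 12.57, with slight overlap (-1.17 ± 0.17, adjusted p = 1.81e-06). Of its 3 other probes, 2 gave -1.24 and -1.19 and 1 gave -0.25, not called. Estradiol lowered Hsd11b1 in both, and it fell by 2.15 in former testes and by 0.89 in former ovaries. Of 13 steroid receptors and enzymes, 1 was called higher and 2 lower.

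Leptin led the adipocyte changes. Lep, the fat-derived hormone that reports energy stores, was at 12.45, 13.14 and 13.69 in former testes and at 10.38, 12.20 and 12.74 in former ovaries (1.29 ± 0.24, adjusted p = 0.000131). The groups overlapped slightly. Under blank the difference was -0.28, and the interaction was called (1.57 ± 0.35, adjusted p = 0.00837). Against testosterone it was not called (adjusted p = 0.68). Estradiol lowered Lep in former ovaries, where it fell by 1.27 (adjusted p = 0.000383), and its change in former testes was 0.30 (adjusted p = 0.542). Lep was the 1 of 10 adipocyte markers called, and the median of that list was 0.30. All 10 were higher in former testes, and the list's median was 0.25 under blank and 0.26 under testosterone. Fatty acid and triglyceride synthesis had 0 of 17 called and a median of 0.09, and lipid storage and lipolysis 1 of 17, the lipase Mgll (0.53 ± 0.15, adjusted p = 0.0268), with a median of 0.29. Other Mgll probes gave 0.51 (adjusted p = 0.25) and 0.37 (adjusted p = 0.177), neither called. The probe used for Mgll lost its call under 11 of 32 alternatives. These were median centring, the fit of the estradiol arrays alone, leaving out slide 5, and leaving out any 1 of XY-Sry E replicates 2 and 5, XXSry E replicates 1, 2 and 3, XY- E replicates 1 and 3 or XX E replicate 3.

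Other genes higher in former testes were of mixed kinds. Prss35, an inactive serine protease homologue, was at 6.97, 7.83 and 8.77 against 4.53, 6.16 and 6.97, with the groups meeting at their edges but not overlapping (1.90 ± 0.17, adjusted p = 6.59e-12). It was detected in no blank or testosterone array, so only a bound holds for its change under estradiol, at least 3.81-fold in former testes and at least 1.05-fold in former ovaries. Hpca, the calcium sensor hippocalcin, was at 7.78, 8.47 and 9.08 against 5.73, 6.43 and 7.64 (1.83 ± 0.21, adjusted p = 5.49e-09). Slc6a13, a GABA transporter, had the largest increase, 2.0 ± 0.34 (adjusted p = 2.08e-05), from 7.90 to 9.26 in former testes and from 4.82 to 7.85 in former ovaries. The natriuretic peptide clearance receptor Npr3 (1.86 ± 0.40), the paraoxonase Pon1 (1.86 ± 0.36) and the collagen Col23a1 (1.63 ± 0.21) followed. Of the 201 higher probes, 69 were raised by estradiol in former testes (background 6%) and 61 lowered by it in former ovaries (5.13%), while 4 were also called higher under blank (0.116%). The first 2 counts share the estradiol arrays with the comparison that chose the probes, and that choice favours both.

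**Figure D3:**
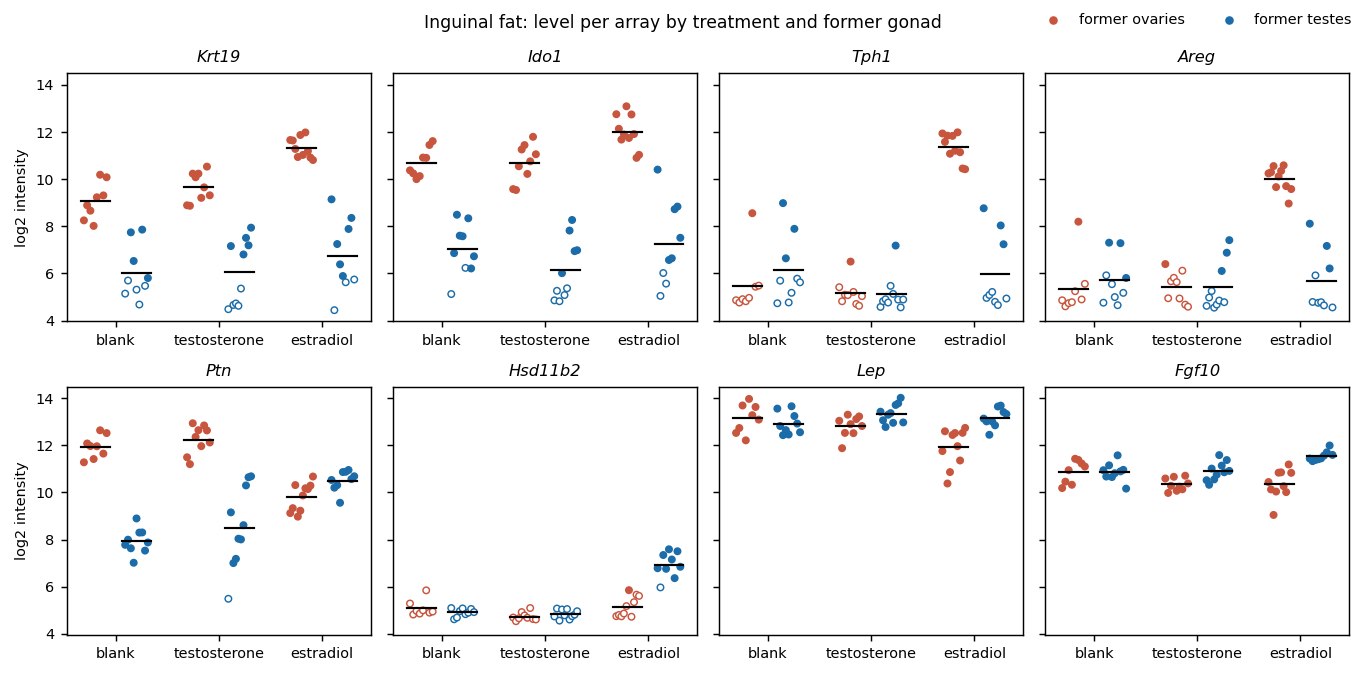
Log2 intensity of 8 genes in each of the 55 adipose arrays by capsule, with former ovaries in red and former testes in blue; filled points are detected, open points are not, and lines are means. Krt19 and Ido1 separate the groups under all 3 capsules, Tph1 and Areg under estradiol, and Hsd11b2 is detected under estradiol alone; the genes were chosen for drawing after their values were seen.

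Immune, vascular and stromal lists had few calls. Over all tested probes 4.39% were called, so counts near 0 in lists this short say little. Macrophage, endothelium, fibroblast, matrix, cell cycle, MHC class 2, B lymphocyte, T lymphocyte and plasma cell markers had 0 called each. Uncalled members could still share a direction. All 15 cell cycle and all 9 T lymphocyte members were lower in former testes. Of 17 matrix members 15 were higher and 2 lower, and macrophage markers split into 5 and 5. Interferon-induced genes had 1 of 14, which was Ido1, and chemokines 2 of 15, which were Cxcl15 and Cxcl1. Cxcl1, a neutrophil attractant, was called at -1.0 ± 0.30 (adjusted p = 0.0364) and lost the call under 13 of 32 alternatives, where its adjusted p rose to at most 0.21. These were no background correction, the offset of 50, no filter on dim probes, leaving out slide 5, and leaving out any 1 of XY-Sry E replicates 3 and 5, XXSry E replicates 1, 2 and 3, XY- E replicates 3 and 4 or XX E replicates 3 and 5. Estradiol raised 9 of 10 macrophage markers in former ovaries and 9 of 10 in former testes, with median differences from blank of 1.13 and 1.27. This change too is partly confounded with slide.

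**Figure D4:**
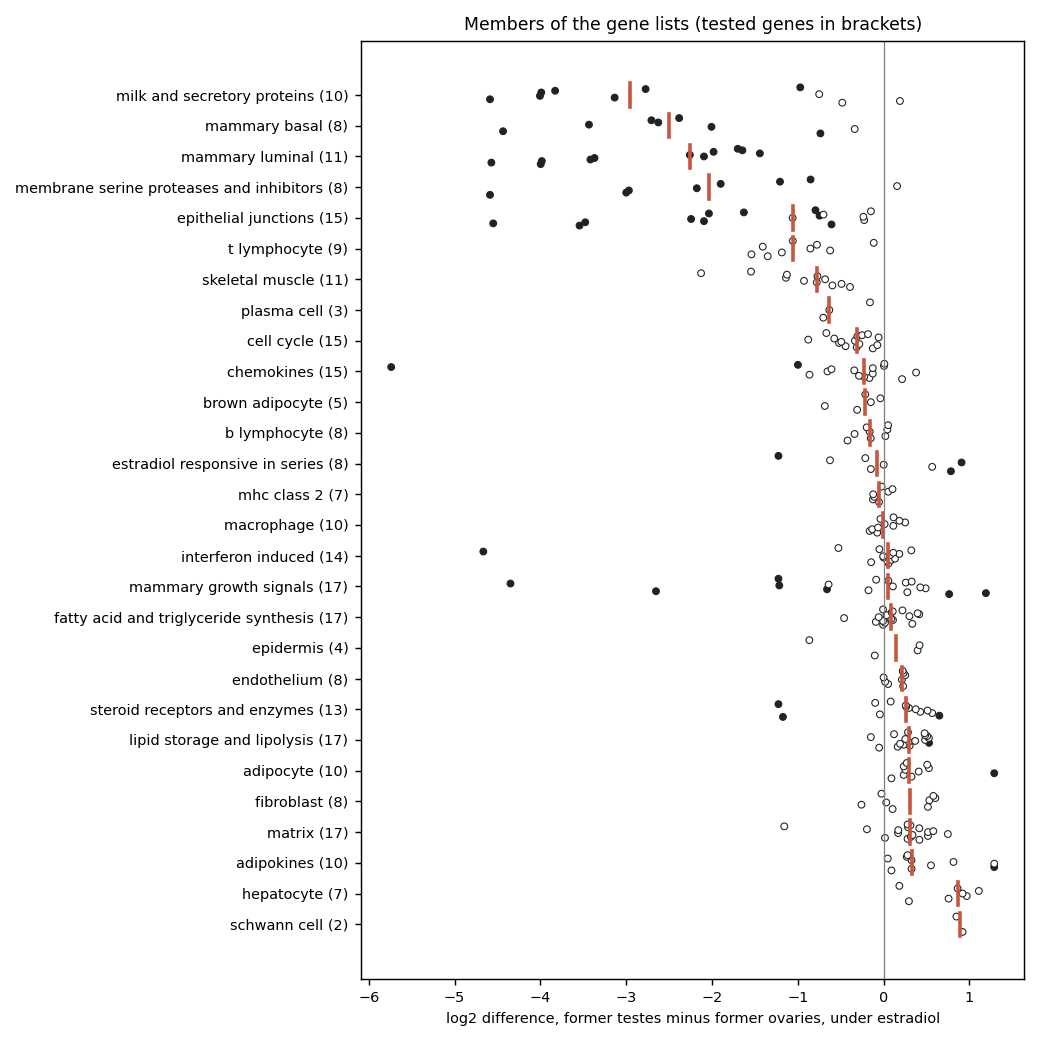
Difference under estradiol (log2, former testes minus former ovaries) for each tested member of 28 gene lists, with filled points called and the red bar at the list's median. The milk, basal, luminal, protease and junction lists lie at medians of -1.06 or below with most members called, and the T lymphocyte list lies at -1.06 with none called.

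Transcripts of neighbouring tissues varied between arrays. T lymphocyte markers had a median difference of -1.06 and skeletal muscle markers of -0.78, with 0 of 9 and 0 of 11 called. The muscle median was -2.28 in XX mice and 0.77 in XY mice, so -0.78 averages opposite directions. For T lymphocyte markers the medians were -0.71 and -1.43. Summed as a mean level, muscle markers ranged from 7.66 to 12.48 in former testes and from 6.28 to 13.50 in former ovaries, and T lymphocyte markers from 5.27 to 8.73 and from 5.29 to 9.82. Hepatocyte markers had a median of 0.86 with 0 of 7 called, and they were high in the 4 estradiol arrays of slide 5, at 9.37 to 10.62, against 6.42 to 8.58 in the other 15. With scores of these tissues as covariates 800 probes were called. The 5 slides that carried the estradiol arrays each held both gonad types. Krt8, Krt14, Csn3, Ido1, Areg and Tph1 were lower in former testes within 5 of 5 slides. For each of these genes every former testis array lay below every former ovary array, so no slide could show another sign. The count therefore does not test for slide effects. Within-slide differences for Areg were -5.18 to -3.83, and slide 1 held 1 former testis and 2 former ovary arrays. With slide as a block 781 probes were called, 302 higher and 479 lower.

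**Figure D5:**
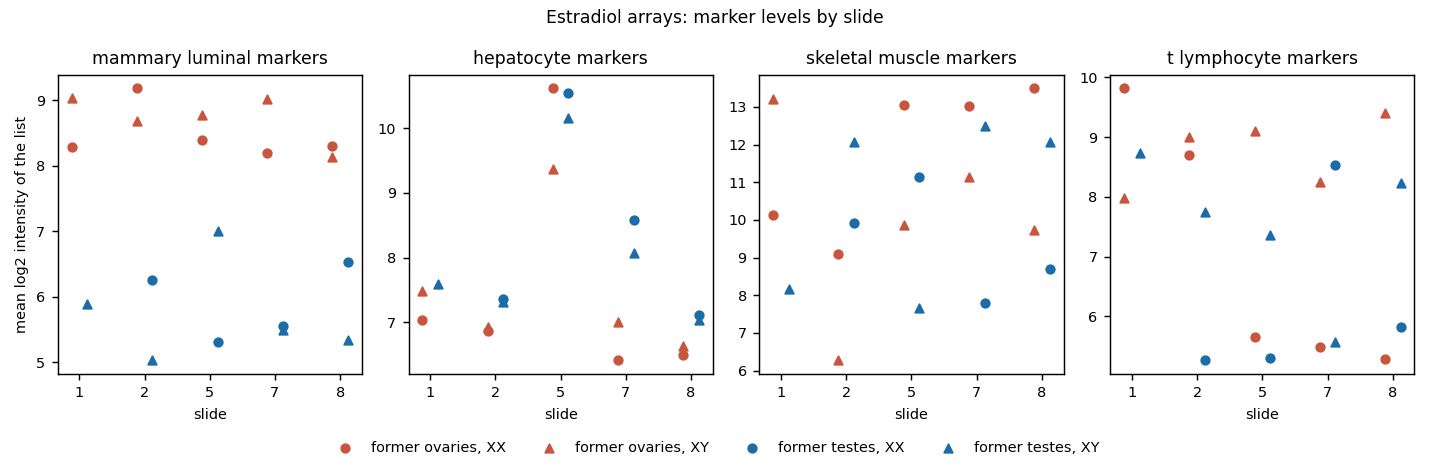
Mean log2 intensity of 4 marker lists in each of the 19 estradiol arrays by slide, with former ovaries in red, former testes in blue, circles for XX and triangles for XY. Luminal markers separate the gonad types on every slide, hepatocyte markers are high on slide 5 in both, and muscle and T lymphocyte markers overlap.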

How the data were processed

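RNA of inguinal adipose tissue was read on 1-colour Illumina BeadChips. The authors deposited, per the file headers, 2 values per array for each of 25697 probes, the mean bead signal, which is a linear intensity, and the detection p-value. The submitters' processing notes name lumi without its role, and no normalisation is stated in the sources used here. The deposited intensities were corrected in limma 3.58.1 (R 4.3.3) by normexp, with the background inferred from those p-values and an offset of 16. All 55 adipose arrays were then quantile normalised and expressed as log2, so differences of dim probes are understated. Testing was limited to the 14636 probes detected (detection p under 0.01) in 3 or more arrays. A model with a mean for each of the 12 groups of genotype and treatment was fitted with lmFit and eBayes, and contrasts weight genotypes equally. Tables and figures were made in Python 3.11.15 with pandas 2.3.3. The 55 columns of bead standard errors were not used. The number of arrays limits the precision.

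Symbols were updated through the RefSeq gene table of GRCm38.p6 for 14186 tested probes (96.9%). Abp1 and Eraf keep the array's names. Some items that the rule selects are not reported here. The array's own build is not given in the sources used here.

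The members and gene lists were chosen with earlier results of these data known. Named genes are the 12 largest called differences each way with the same sign in XX and XY mice (the probe with the smallest p), the 4 smallest adjusted p of each interaction and up to 4 members of each list (the brightest probe). Other list members quoted, the genes drawn and the promoters were picked after their values were seen. A probe detected in no array of a group has only a bound, set against the higher of its own signal and the lowest detected signal of each array. In simulated data with known changes, the fit recovered 80% of changes of 1 log2 unit and 99% of 2 units, with 4 false calls among 183. The simulated noise was independent between probes, without slide effects or the shared signal of neighbouring tissues. The share of false calls in the real arrays may therefore differ. Alternatives were other normalisations, offsets, filters, slide as a block, array weights, tissue scores as covariates, the other label of XX E replicate 1 and leaving out each array. Those with fewer samples or slide terms kept the normalised values of all 55 arrays.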

Additional observations from a re-analysis of the deposited data

Results flagged for a closer look

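In 19 of 266 gene and group combinations tested, 1 array stood apart from the rest of its group of 9 or 10; chance alone flags about 1 in 20. Applying this rule to the groups of both genotypes together was decided after the data were seen. Among the former ovaries, XY- E replicate 3 was low for 9 genes, mostly of stroma. They were Cxcl12 at 10.85 against 11.81 in the nearest array, Col18a1 at 9.58 against 10.83, Lum at 9.43 against 12.32, Col3a1 at 8.66 against 10.37 and Dpt at 8.54 against 10.99. The others were Col15a1 at 8.86, Adamts19 at 6.75, Sncg at 6.89 and Prss35 at 4.53. XY- E replicate 1 was high for the epidermal genes Lor (11.62 against 5.57), Krtdap (10.08 against 5.38) and Krt10 (11.95 against 9.72). Trp63 was high in XX E replicate 2, at 10.53, and Atp2a1 was low in XY- E replicate 2, at 7.82.

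Among the former testes, XY-Sry E replicate 1, the array with the highest luminal level, was high for Pgr (6.62 against 5.54) and Lor (6.03 against 4.88) and low for Col23a1 (7.44 against 8.11). XY-Sry E replicate 3 was low for Col15a1, at 10.94, and for Npr3, at 8.06.

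The gonad difference under estradiol differed from that under another capsule in 40 cases among the named genes, by limma's test of the interaction. Values are log2, the difference under estradiol minus that under the other capsule, and the 2 interactions share the estradiol arrays. Against blank, the genes lower under estradiol were Tph1 (-5.89 ± 0.70, SE), Abp1 (-4.66), Areg (-4.56), Cxcl15 (-4.25), Sftpd (-3.58), Lgals7 (-2.54), Slc5a8 (-2.53) and Tmprss11a (-2.40). Smaller differences were those of Phactr1 (-1.84), Trp63 (-1.80) and Hsd11b1 (-1.26). Against testosterone the same direction was called for Tph1 (-5.34), Areg (-4.37), Abp1 (-4.00), Sftpd (-3.41), Tmprss11a (-2.14), Lgals7 (-2.13), Phactr1 (-1.73), Cxcl1 (-1.73), Hsd11b1 (-1.60), Trp63 (-1.56) and Pgr (-1.03). The Phactr1 values come from the dimmer of its 2 probes. The Cxcl1 call was lost under median centring, with no background correction and without slide 5, and the Pgr call with XX E replicate 1 taken as testosterone.

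In the other direction Ptn had the largest values, 4.84 ± 0.46 against blank and 4.47 ± 0.45 against testosterone. Genes higher against blank also included Npr3 (2.66), Slc6a13 (2.62), Nxnl2 (2.02), Hsd11b2 (1.99), Hpca (1.80), Prss35 (1.79), Lep (1.57), Rpp25 (1.49), Eraf (1.36), Fgf10 (1.28) and Col23a1 (1.26). Against testosterone they were Prss35 (1.96), Nxnl2 (1.75), Hsd11b2 (1.67), Hpca (1.38) and Col23a1 (1.37). The call of Eraf against blank was lost under 15 alternatives, and those of Npr3, Fgf10 and Col23a1 under median centring.

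Some of these interactions are set against background signal. Rpp25 and Tmprss11a were detected in no blank array, Tmprss11a, Sftpd and Pgr in no testosterone array, Hsd11b2 and Prss35 in neither, and Hpca in no blank array and no testosterone array of former ovaries. Sftpd and Eraf were detected in no blank array of former ovaries, and the dimmer Phactr1 probe in no former ovary array under blank or testosterone and in no former testis array at all. For these the values are fitted differences, given neither as exact changes nor as bounds.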

How the results depend on the processing

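The labels give the arrays no replicate numbers that could pair them, and slide was used as a block instead, with 781 probes called under estradiol in all arrays and 863 (341 higher, 522 lower) in the estradiol arrays alone. With array weights, 1082 probes were called for gonad type under estradiol (484 higher, 598 lower) in place of 643, 693 in XX mice in place of 272, 588 in XY mice in place of 366, 1 for gonad type by sex chromosomes in place of 0, and 280 against blank in place of 122; the cause was not tested. The total counts of the 6 comparisons stayed within 1.5 times under the other alternatives run. Leaving out 1 array at a time gave 543 to 707 calls under estradiol, 204 to 296 in XX mice, 327 to 379 in XY mice, 0 by sex chromosomes, 109 to 131 against blank and 102 to 123 against testosterone. The share of higher calls under estradiol was 31.3%, against 19.4% with median centring, 18.8% without slide 5 (an alternative chosen after seeing the data) and 44.7% with array weights. With XX E replicate 1 taken as testosterone 607 probes were called. Of the 55 named probes called under estradiol, 50 kept the call under all 32 alternatives and 5 lost it under some, among them Cxcl1, Mgll, Cyp2f2 and Adamts19. Of these 55, 0 changed sign. Of the 78 not called, 19 gained a call under some alternatives and 17 changed sign under some. Dim probes are limited by signal over background.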
